A study of Mus musculus with 8 samples.

Results

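The alpha-actinins Actn1 and Actn4 and the PDZ-LIM proteins Pdlim1, Pdlim2, Pdlim5 and Pdlim7 were followed as mRNAs in a bead pulldown from mouse podocytes. They were chosen by name, as large actin crosslinkers and small proteins that bind them, and 20 probesets of the 46643 in the deposited table carry 1 of these 6 gene symbols, 5 for the actinins and 15 for the PDZ-LIM genes. The samples were 4 eluates, each the RNA that came off IgG Sepharose beads after washing and TEV protease cleavage, and 4 inputs, each the RNA of an extract kept without beads. All 8 came from MPC-5, a conditionally immortalized mouse podocyte cell line. The cells stably carried a CMV-driven transgene for TAP-tagged WT1(+KTS), which is one isoform of the Wilms' tumor protein, and had differentiated at 37°C over 14 days. Eluates and inputs therefore share the transgene, cells without it were not analysed here, and the series' design text states that the tagged protein was not needed for the enrichment. Signals are those the authors deposited from Illumina Sentrix-6 mouse arrays.

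Alpha-actinins are antiparallel, rod-shaped dimers of spectrin repeats with an actin-binding domain at each end, and they crosslink actin filaments. Actn1 and Actn4 are the non-muscle forms, and mutations of human ACTN4 cause a familial focal segmental glomerulosclerosis, a podocyte disease. The PDZ-LIM proteins carry a PDZ domain, with which they bind the actinins, and LIM domains that bring in kinases and other partners. Pdlim1 (CLP36) and Pdlim2 (mystique) belong to the ALP group with a single LIM domain, and Pdlim5 (ENH) and Pdlim7 (Enigma) to the Enigma group with several.

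In all, 13902 probesets reached a signal of 100 on 3 or more eluates and were tested. Their log2 signals were fitted in limma with terms for fraction and for the labels' replicate number, and a probeset was called at an adjusted p of 0.15, the FDR cutoff of the study. Of these, 1.09% were called higher and 0.0288% lower in the eluates. Eluate and input of the same replicate number deviated together for 2 of the 4 numbers and in opposite directions for the other two, so values are also given with the pairs on which the study's own test ran (eluates 1, 2, 3 and 4 with inputs 2, 3, 4 and 1), where they change a call. With those pairs 19.2% of the probesets were called higher and 20.7% lower, so a call of a small difference says little there. With those pairs limma's moderation of the variance also left an SE of 0.10 or 0.11 at every tested member probeset. The p-values and intervals given with the pairs therefore do not measure the spread of each probeset itself. The arrays fall into 2 sets along the first principal component, eluates 1 and 4 with inputs 1 and 2, and eluates 2 and 3 with inputs 3 and 4. Eluate and input of replicate numbers 2 and 4 lie in opposite sets. With the replicate number as block, the difference between the sets therefore enters the SE. A probeset that was not called with that block may still differ between the fractions. Median signals were 71 to 84.6 on the eluate arrays and 64.9 to 84.3 on the input arrays. The study describes 4 independent pulldowns, but no source used here says whether they came from separate cultures, so the spread behind the p-values may be technical. Precision is limited by the 4 arrays per fraction.

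Of 10 podocyte markers, 8 had a probeset and 2 passed the filter, Synpo (synaptopodin) and Podxl (podocalyxin). Synpo reached a signal of 16891 and Podxl of 914 on the array where each was highest. The 6 others did not pass, with a highest signal on any array of 114 for Nphs1 (nephrin), 119.6 for Kirrel, 91.6 for Cd2ap, 91.2 for Wt1, 81.4 for Ptpro and 71.6 for Tcf21. Whether the Wt1 probesets read the transgene is not known. Of the markers of other kidney cell types, 2 of 4 for the proximal tubule (Aqp1 and Lrp2), 1 of 4 for the endothelium (Kdr), 1 of 3 for the mesangium (Pdgfrb) and 0 of 2 for immune cells passed, and 0 of these 4 genes were called. The immune marker Cd68 had no probeset. The 4 genes reached signals of 12405 (Aqp1), 1586 (Lrp2), 239 (Kdr) and 235 (Pdgfrb) on the array where each was highest. Their log2 fold changes, eluate over input, ran from -0.09 to 0.24, and 1 of them, Pdgfrb, was called higher with the pairs of the study (adjusted p = 0.0644). Their part in the results below was not tested. Gapdh, as a level, had mean signals of 36437 in the eluates and 33692 in the inputs.

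Actn4 mRNA was about 5-fold higher in the eluates at all 3 of its probesets. The brightest probeset, 3840301, had signals of 16194, 20427, 14783 and 21839 in eluates 1 to 4, against 4096, 3792, 4025 and 2774 in inputs 1 to 4. The lowest eluate stood far above the highest input, and the groups did not overlap. Its mean log2 signal was 14.14 ± 0.27 in the eluates and 11.83 ± 0.26 in the inputs (SD, n = 4 each), a log2 fold change of 2.32 (SE 0.21, adjusted p = 0.000505 in limma), or 4.98-fold.

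Probeset 4590390 of Actn4 had signals of 6717, 9589, 6564 and 10352 in the eluates and 1752, 1556, 1555 and 1165 in the inputs, a log2 fold change of 2.45 (SE 0.22, adjusted p = 0.000505). Its dimmest probeset, 7050132, had 824, 1335, 813 and 1501 in the eluates and 275, 256, 231 and 164 in the inputs, with a log2 fold change of 2.24 (SE 0.25, adjusted p = 0.00259). Eluates 2 and 4 were the highest eluates and input 4 the lowest input at every Actn4 probeset. The 3 probesets therefore gave nearly the same enrichment over a wide range of signals. The within-array difference between the brightest probeset and the other probesets was -0.13 (95% interval -0.26 to 0.00) for 4590390 and 0.07 (95% interval -0.22 to 0.36) for 7050132, and neither passed an exact permutation test (adjusted p = 0.103 and 0.514, two-sided, over 6 comparisons of probesets of 1 gene chosen after the data were seen).

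Actn1 mRNA was also higher in the eluates, at both of its probesets. Probeset 105690079 had signals of 2006, 1773, 1608 and 2729 in the eluates, against 789, 654, 433 and 405 in the inputs. The mean log2 signal was 10.96 ± 0.33 in the eluates and 9.10 ± 0.46 in the inputs (SD, n = 4 each), and the log2 fold change was 1.86 (SE 0.24, adjusted p = 0.00592), or 3.63-fold. Inputs 1 and 2 were brighter than inputs 3 and 4, and every eluate was above every input.

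The second Actn1 probeset, 103850050, was dim, with 214, 194, 165 and 325 in the eluates and 127, 126, 87 and 77 in the inputs. It had a log2 fold change of 1.09 (SE 0.24, adjusted p = 0.135), or 2.13-fold. Inputs 3 and 4 lay below 100 and not far above the median of all probesets on their arrays (76.4 and 64.9). It passed the filter through the eluates, the fraction where it was high, so its call and its fold carry less weight than those of the brighter probeset. With signals below 100 set to 100 its log2 fold change was 0.95 (adjusted p = 0.155). Its call was lost without replicate 1 (adjusted p = 0.399) and without replicate 3 (adjusted p = 0.609). It was held with the pairs of the study (adjusted p = 5.47e-17, and 0.0922 with no moderation of the variance).

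**Figure D1:**
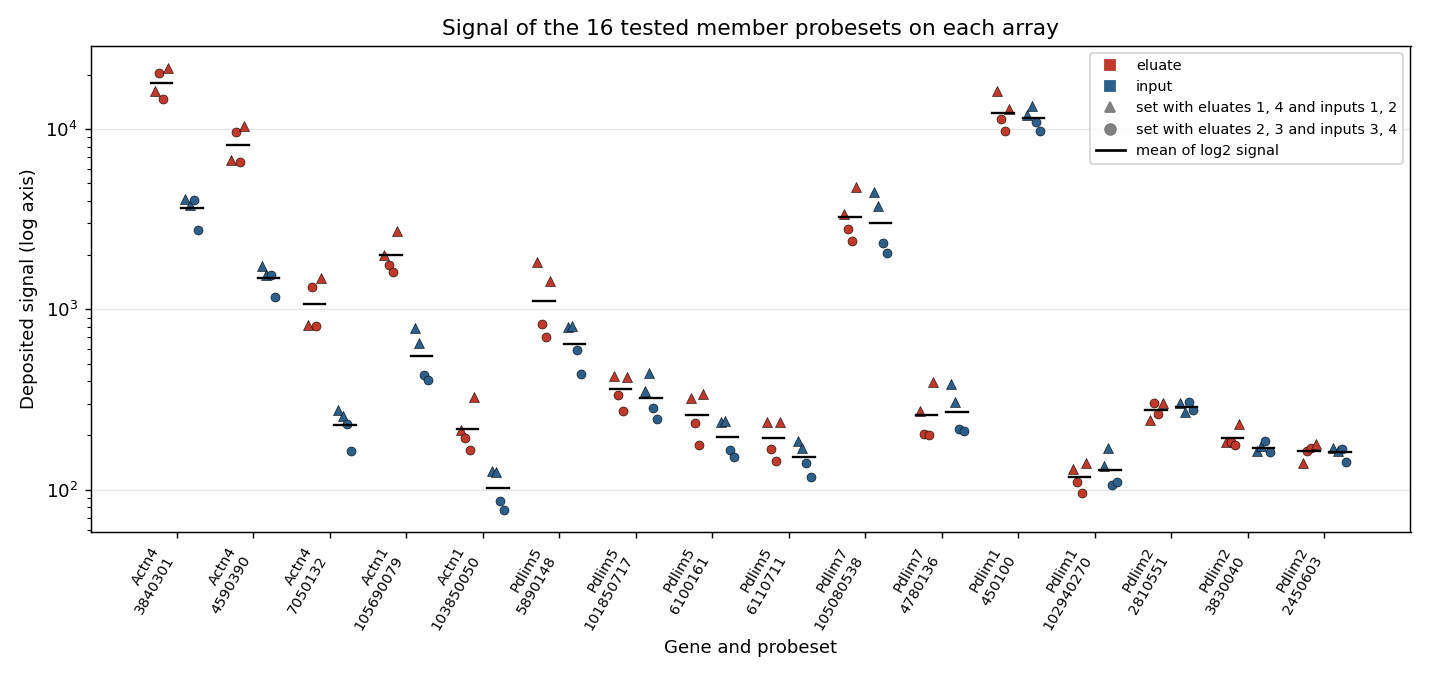
Deposited signal (log axis) of the 16 tested member probesets on each array, eluates in red on the left and inputs in blue on the right of each pair of columns. Points are single arrays, triangles and circles mark the 2 sets of arrays, and bars are means of the log2 signal. The 4 eluates lie above the 4 inputs at all 5 actinin probesets and at none of the 11 PDZ-LIM probesets, beside 4.83% of all tested probesets.

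All 5 actinin probesets were called and at least 2-fold higher, where 0.655% of the tested probesets were, and with signals below 100 set to 100 this held for 4, without the dim Actn1 probeset. By fold change they stood at ranks 23, 24 and 29 (Actn4) and 41 and 91 (Actn1) of 13902. Actn1 and Actn4 are among the genes that the study selected as enriched on these same arrays, so this count is not independent evidence. All 4 eluates were above all 4 inputs at each of the 5, which held for 4.83% of the tested probesets. The median log2 fold change of the 5 was 2.24, against -0.01 over all tested probesets, whose 5th and 95th percentiles were -0.40 and 0.46.

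**Figure D2:**
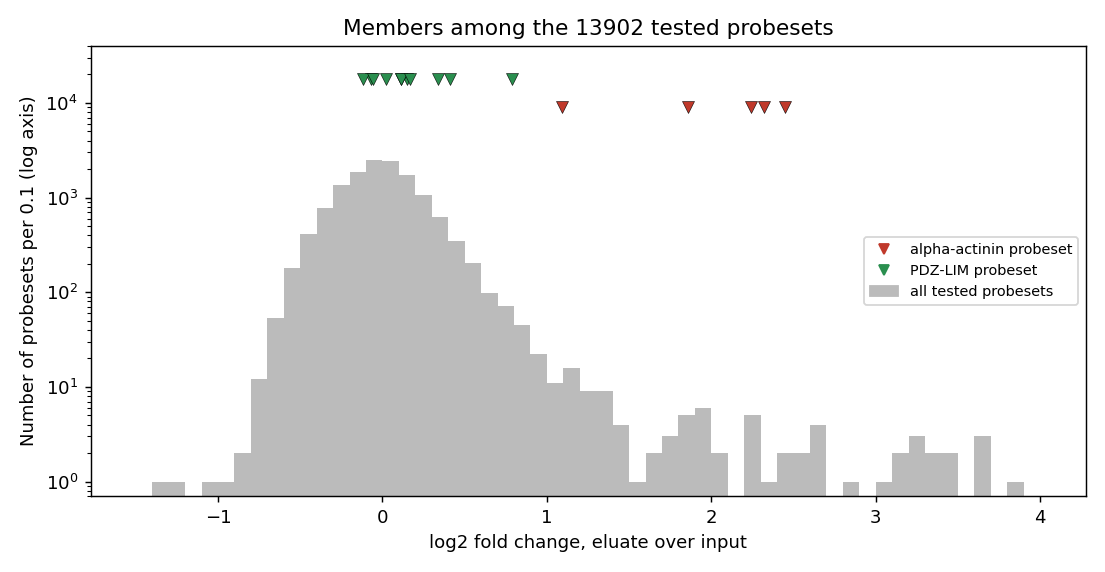
Number of probesets (log axis) by log2 fold change, eluate over input, for all 13902 tested probesets in grey, with red triangles for the actinin and green triangles for the PDZ-LIM probesets. The actinin probesets lie from 1.09 to 2.45 in the right tail and the PDZ-LIM probesets from -0.12 to 0.79.

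The PDZ-LIM genes, whose proteins bind the actinins, were less enriched in the eluates. Of the 15 probesets, 11 passed the filter, and limma called 0 of these, beside 1.09% of all tested probesets, while 1 had an unadjusted p under 0.05. No PDZ-LIM probeset had all 4 eluates above all 4 inputs. This held for 4.83% of all tested probesets, so 0 of 11 says little by itself. The log2 fold changes ran from -0.12 to 0.79 with a median of 0.11.

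Pdlim5, the scaffold that ties protein kinase C to the actinin lattice, had the largest fold changes among the PDZ-LIM genes. Its brightest probeset, 5890148, had signals of 1836, 827, 702 and 1429 in eluates 1 to 4, against 803, 809, 597 and 438 in inputs 1 to 4. Eluates 1, 2 and 4 stood above all inputs, eluate 2 only just (827 against 809), while eluate 3 overlapped with them. The log2 fold change was 0.79 (SE 0.27, 95% interval 0.18 to 1.40, unadjusted p = 0.0162, adjusted p = 0.362), or 1.73-fold. With the pairs of the study the eluate was higher in 4 of 4 pairs, by 1.38-fold to 2.27-fold. The probeset was called there (adjusted p = 4.17e-10, and 0.13 with no moderation of the variance). It was also called after quantile normalization (adjusted p = 0.146), where 3.43% of the tested probesets were called higher.

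The other Pdlim5 probesets differed less between the fractions. Probeset 6100161 had 321, 235, 177 and 339 in the eluates and 237, 239.7, 167 and 151 in the inputs, and probeset 6110711, annotated to another Pdlim5 transcript, had 236, 169, 145 and 238 in the eluates and 187, 171, 141 and 118 in the inputs. Their log2 fold changes were 0.41 (SE 0.22, adjusted p = 0.595) and 0.34 (SE 0.20, adjusted p = 0.654), and both were called with the pairs of the study (adjusted p = 0.000845 and 0.0061), with the eluate higher in 4 of 4 pairs. Probeset 101850717 had 429, 336, 274 and 422 in the eluates and 354, 441, 284 and 247 in the inputs, a log2 fold change of 0.15 (SE 0.21, adjusted p = 0.923), and was not called with either block. In these probesets, too, the arrays overlapped between the fractions.

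Probesets 5890148 and 101850717 carry the same annotated Pdlim5 transcript, and their fold changes were 0.64 apart on the log2 scale (95% interval 0.14 to 1.14). In no array of the eluates was their ratio as low as in any input array (exact permutation p = 0.0286, the smallest that 4 arrays against 4 allow, adjusted p = 0.0571 over the 6 comparisons of probesets of 1 gene). The difference from 6110711 was 0.45 (95% interval 0.02 to 0.88, adjusted p = 0.0571) and that from 6100161 was 0.38 (95% interval -0.02 to 0.77, adjusted p = 0.0857).

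**Figure D3:**
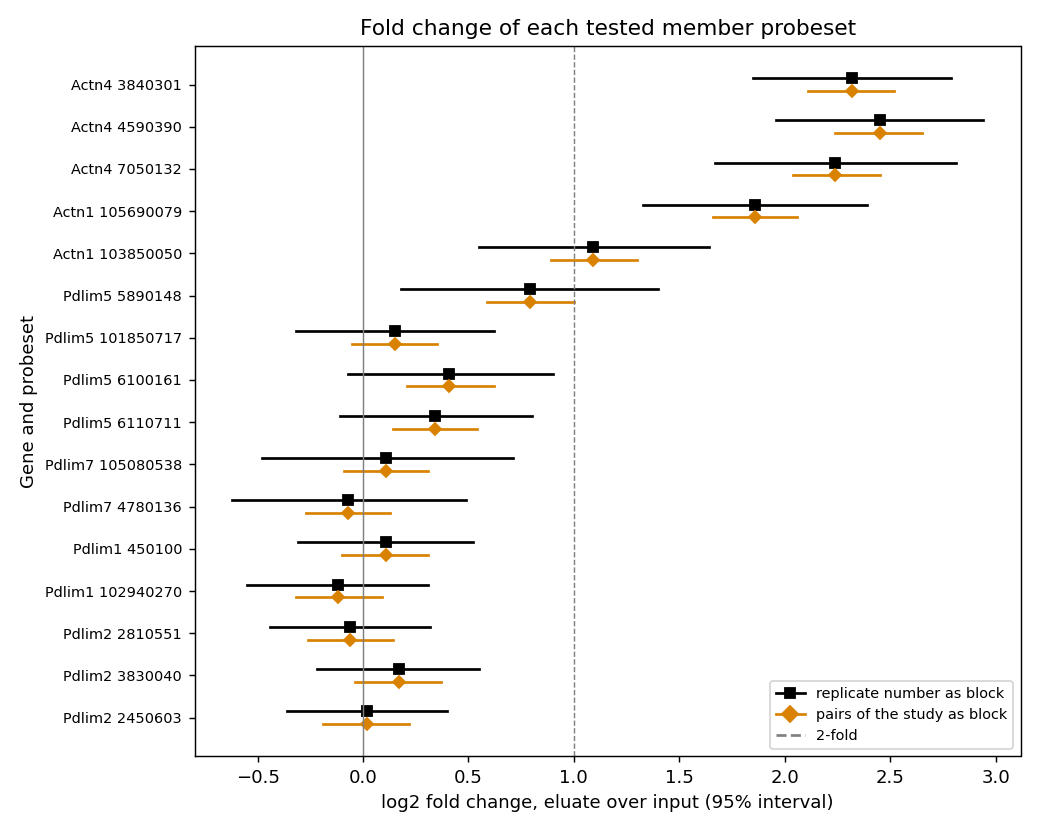
Log2 fold change, eluate over input, of each tested member probeset with its 95% interval, from limma with the replicate number of the labels as block (black squares) and with the pairs of the study as block (orange diamonds). The dashed line marks a 2-fold difference. The orange intervals have nearly the same width throughout (SE 0.10 or 0.11) and do not measure the spread of each probeset itself. The intervals of all 5 actinin probesets lie above 0 under both blocks, those of 3 Pdlim5 probesets do so with the pairs of the study, and 1 of these 3, probeset 5890148, does so under both.

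Pdlim7, which was first described as a partner of the insulin receptor and as a mineralization protein, showed no difference between the fractions that its spread could resolve. Probeset 105080538 had 3379.7, 2792, 2406 and 4765 in the eluates and 4464, 3739, 2326 and 2054 in the inputs, a log2 fold change of 0.11 (SE 0.27, 95% interval -0.48 to 0.71, adjusted p = 0.97). Inputs 1 and 2 and eluates 1 and 4, the arrays of 1 set, were the highest of their fractions. Probeset 4780136 had 274, 204, 202 and 398 in the eluates and 386, 307, 216 and 212 in the inputs, with a log2 fold change of -0.07 (SE 0.25, 95% interval -0.62 to 0.49, adjusted p = 0.986). Both of these intervals exclude a 2-fold difference, and with the pairs of the study they narrowed to -0.09 to 0.31 and -0.27 to 0.13.

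Pdlim1, which is found on actin stress fibres with the actinins, was bright in both fractions. Probeset 450100 had 16331, 11391, 9731 and 12946 in the eluates and 12027, 13429, 11029 and 9823 in the inputs, and the groups overlapped almost fully. Its log2 fold change was 0.11 (SE 0.19, 95% interval -0.31 to 0.52, adjusted p = 0.948). The dim probeset 102940270, with 131, 109.7, 95.4 and 141 in the eluates and 135, 170.3, 106 and 110.2 in the inputs, had a log2 fold change of -0.12 (SE 0.19, adjusted p = 0.941), and it was the 1 tested member probeset with an eluate below the filter of 100.

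Pdlim2, an adaptor that also acts in the nucleus as a ubiquitin ligase for transcription factors, had no call either. Probeset 2810551 had 244, 301, 264 and 303 in the eluates and 304, 271, 305 and 275 in the inputs. Its log2 fold change was -0.06 (SE 0.17, 95% interval -0.44 to 0.32, adjusted p = 0.978). Probesets 3830040 and 2450603 had log2 fold changes of 0.17 (adjusted p = 0.857) and 0.02 (adjusted p = 0.999), at signals from 141 to 231 in the eluates and from 143 to 187 in the inputs.

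The 4 member probesets that did not pass the filter, 2 of Pdlim5 and 1 each of Pdlim2 and Pdlim7, had signals from 47.5 to 94.1 over all 8 arrays. Their log2 fold changes ran from 0.00 to 0.26. At this level no difference can be read from them.

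That actinins were called and their partners were not does not show that the mRNAs behaved differently, so the ratio of 2 signals was taken within each array and compared between the fractions, with the brightest tested probeset of each gene. For Actn4 over Pdlim1 this log2 ratio was -0.01, 0.84, 0.60 and 0.75 in eluates 1 to 4, against -1.55, -1.82, -1.45 and -1.82 in inputs 1 to 4. For Actn1 over Pdlim7 it was -0.75, -0.65, -0.58 and -0.80 in the eluates and -2.50, -2.52, -2.43 and -2.34 in the inputs, with a far smaller spread than either gene had alone. Each of the 8 ratios of an actinin to a PDZ-LIM gene separated the eluates from the inputs without overlap. Actn1 and Actn4 are among the genes that the study selected as enriched on these same arrays, and the PDZ-LIM genes are not. The tests of these ratios are therefore not independent evidence of a difference.

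The fold change of Actn4 exceeded that of Pdlim2 by 2.38 on the log2 scale (95% interval 2.05 to 2.70), that of Pdlim1 by 2.21 (95% interval 1.69 to 2.74), that of Pdlim7 by 2.21 (95% interval 1.57 to 2.84) and that of Pdlim5 by 1.53 (95% interval 0.67 to 2.38). For Actn1 the differences were 1.92 (95% interval 1.24 to 2.59) from Pdlim2, 1.75 (95% interval 1.19 to 2.32) from Pdlim1, 1.75 (95% interval 1.59 to 1.90) from Pdlim7 and 1.07 (95% interval 0.42 to 1.71) from Pdlim5. Each of the 8 had an exact permutation p of 0.0286 (two-sided, n = 4 arrays each), the smallest this design allows, and an adjusted p of 0.0321 over 9 comparisons. This permutation ignores the pairs of the study. Within those pairs each of the 8 was above 0 in 4 of 4 pairs. Their exact sign-flip p was 0.125, the smallest that 4 pairs allow, so none could pass there. The difference between Actn4 and Actn1 was 0.46 (95% interval -0.08 to 1.00, exact permutation p = 0.114, adjusted p = 0.114), and eluate and input arrays overlapped in this ratio. Within the pairs of the study, a comparison added after the data were seen, it was 0.48, 0.31, 0.43 and 0.62 for eluates 1 to 4, above 0 in 4 of 4 pairs (95% interval of the mean 0.25 to 0.67), where the exact sign-flip test of 4 pairs cannot go below p = 0.125. With the mean over the probesets of a gene in place of the brightest one, it was 0.86 (adjusted p = 0.0286), a mean in which the dim Actn1 probeset counts as much as the bright one.

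**Figure D4:**
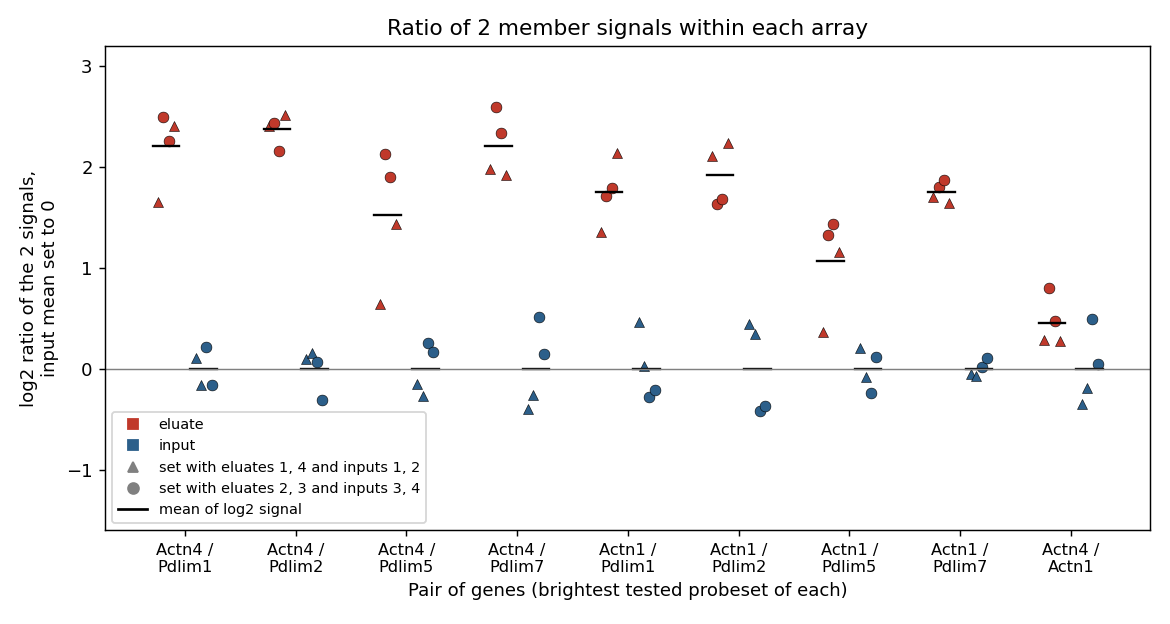
Log2 ratio of the signals of 2 member genes within each array, with the mean of the inputs set to 0 for each pair. Eluates are red and on the left, inputs blue and on the right, triangles and circles mark the 2 sets of arrays, and bars are means. For the 8 ratios of an actinin to a PDZ-LIM gene, all eluates lie above all inputs, with mean differences from 1.07 to 2.38, while for Actn4 over Actn1 the arrays overlap.

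In the order of their fold changes the genes stood as Actn4, Actn1, Pdlim5, Pdlim7, Pdlim1 and Pdlim2. Of neighbours in this order, Actn1 and Pdlim5 passed the unpaired permutation test after adjustment over 9 comparisons. Pdlim5 and Pdlim7 had the same exact permutation p of 0.0286 but were adjusted over another family of 6. That 1 of these neighbour pairs passed and the other did not comes from the adjustment and does not set them apart. The interval within the pairs of the study also lay above 0 for Actn4 and Actn1. The 6 differences among the PDZ-LIM genes were tested after the data were seen. Pdlim5 exceeded Pdlim7 by 0.68 (95% interval 0.09 to 1.28) and Pdlim1 by 0.69 (95% interval 0.15 to 1.22), each with no overlap of the arrays and an exact permutation p of 0.0286, but an adjusted p of 0.0857 over the 6. The difference between Pdlim5 and Pdlim2 was 0.85 (95% interval -0.16 to 1.86, adjusted p = 0.229), with 4 of 4 pairs of the study above 0 (95% interval 0.28 to 1.42). Within those pairs the interval for Pdlim5 and Pdlim7 was -0.09 to 1.45 and that for Pdlim5 and Pdlim1 was 0.37 to 1.00. The remaining 3 differences were between 0.00 and 0.17 with adjusted p-values from 0.686 to 1.

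The levels of several members also differed between the 2 sets of arrays, in both fractions. The set with inputs 1 and 2 was brighter than the other by 0.87 on the log2 scale for Pdlim5 (probeset 5890148), by 0.77 for Pdlim7 (105080538), by 0.62 for Actn1 (105690079), by 0.38 for Pdlim1 (450100) and by 0.18 for Actn4 (3840301), against -0.03 for Pdlim2 (2810551). These are descriptions, since all probesets went into the component. Within the sets with inputs 1 and 2 and with inputs 3 and 4, Actn4 was 4.77-fold and 5.2-fold higher in the eluates, Actn1 was 3.26-fold and 4.03-fold higher, and Pdlim5 2.01-fold and 1.49-fold. The corresponding values were 0.982 and 1.19 for Pdlim7, 1.14 and 1.01 for Pdlim1 and 0.946 and 0.974 for Pdlim2. The proximal tubule markers Aqp1 and Lrp2 differed more between the sets, by 2.34 and 1.71. With the set of arrays as the block, which called 14.4% of the tested probesets higher, the same 3 Pdlim5 probesets as with the pairs of the study were past the cutoff, with adjusted p-values of 1.87e-05, 0.0112 and 0.0334.

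**Figure D5:**
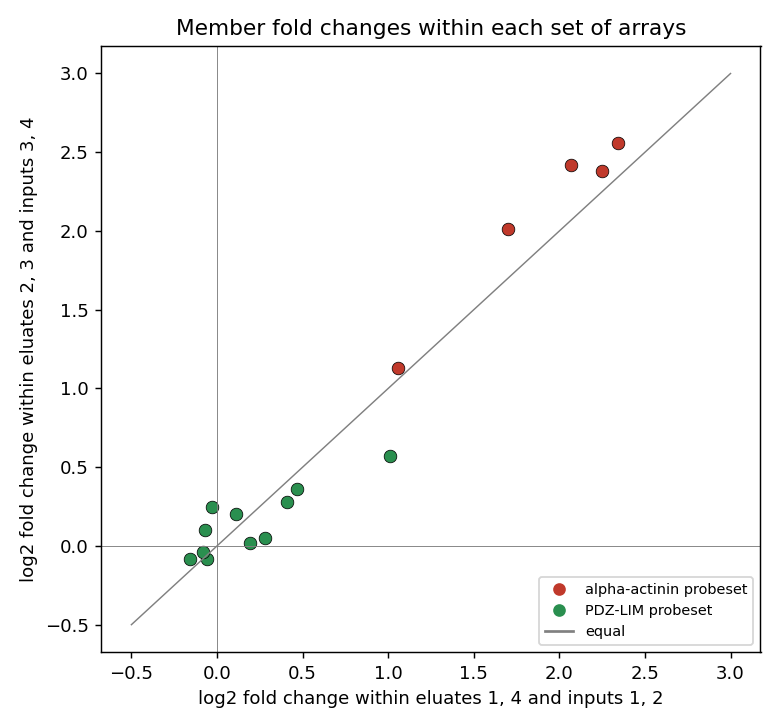
Log2 fold change, eluate over input, of each tested member probeset within eluates 1 and 4 and inputs 1 and 2 (x axis) and within eluates 2 and 3 and inputs 3 and 4 (y axis), each from 2 arrays of a fraction and with no test. The 5 actinin probesets (red) lie above 1 on both axes, and 1 PDZ-LIM probeset (green), that of Pdlim5, reaches 1.01 on the x axis.

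The rest of both families gave little signal. The muscle actinins Actn2 and Actn3 had 2 probesets each, none of which passed the filter, with highest signals of 88.3 and 140.2 on any array. Of the other PDZ-LIM genes, Pdlim3 (ALP) and Ldb3 (ZASP), both known from the sarcomere's Z-disc, did not pass. Pdlim4 (RIL), which regulates stress fibre turnover, did, with mean signals of 124 in the eluates and 119.7 in the inputs and a log2 fold change of 0.06 (SE 0.16, adjusted p = 0.979).

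Of 19 other proteins known to bind alpha-actinin, 18 had a probeset, 12 passed the filter, and 0 were called higher or lower in limma. Of all tested probesets 1.09% were called higher and 0.0288% lower, so 0 of 12 says little by itself. Of the 12, 1 had an unadjusted p under 0.05. The median log2 fold change of the 12 was 0.05, with a range from -0.23 to 0.81. With the pairs of the study 3 were called higher and 1 lower, beside 19.2% and 20.7% of all tested probesets. Among the 3 were Synpo, the podocyte protein that binds Actn4, with a log2 fold change of 0.81 (SE 0.34, adjusted p = 0.467 with the replicate number), and Palld (palladin), with 0.52 (SE 0.31, adjusted p = 0.657). The 1 was the LIM protein Csrp2, with -0.23 (SE 0.31, adjusted p = 0.916). Within the pairs of the study the eluate was higher in 4 of 4 for Synpo, by 1.59-fold to 1.86-fold. For Palld it was also higher in 4 of 4, by 1.36-fold to 1.54-fold. For Csrp2 it was higher in 0 of 4, at 0.796 to 0.895 of the input.

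Synpo was the partner with the largest difference. Its brightest probeset had 16891, 8037, 6712 and 16758 in eluates 1 to 4, against 9776, 10630.3, 4352 and 3605 in inputs 1 to 4. As with Pdlim5, the arrays overlapped between the fractions and were bright in the set with inputs 1 and 2, by 1.28 on the log2 scale, and within the sets the fold was 1.65 and 1.85. The focal adhesion protein zyxin (Zyx) and the LIM protein Csrp1 had log2 fold changes of -0.15 (SE 0.19) and 0.01 (SE 0.29), the integrin chain Itgb1 had -0.19 (SE 0.24) and alpha-catenin (Ctnna1) 0.19 (SE 0.18), and none of these 4 was called under either block.

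Across the 8 arrays, the signal of Actn4 (3840301) ran most closely with that of Cul7, a scaffold of a ubiquitin ligase (Pearson r = 0.997), Flna (0.996), Svil (0.996), Myh9 (0.994) and Myh10 (0.993). The log2 fold change of Cul7 was 0.94 and those of the others, which encode large actin-binding proteins, were 1.72 to 3.24. For Actn1 (105690079) the 5 closest included Specc1 (0.995), the kinesin Kif13b (0.990), Sptan1 (0.987) and the chromatin protein Ep400 (0.986). Between the actinins r was 0.962, and r with Pdlim5 was 0.692 for Actn4 and 0.798 for Actn1. With Pdlim1 r was 0.286 for Actn4 and 0.414 for Actn1, with Pdlim7 it was 0.254 and 0.470, and with Pdlim2 -0.110 and -0.151. Pdlim1 (450100) ran most closely with Ino80b, Sgpl1, Sdf4, Tob1 and Upp1 (0.976 to 0.989), all with log2 fold changes from 0.05 to 0.23, and with Pdlim5 at 0.861. These correlations are descriptions over 8 arrays that share the difference between fractions and that between the sets of arrays.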

How the data were processed

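Each array was labelled from 650 ng of total RNA. The authors deposited the log2 of their signal for 46643 probesets, and BeadStudio and Partek 6.4 are listed in the submitters' processing notes. Any normalization between arrays was not given in the sources used here. Its log2 scale was settled by setting fraction means of the signal against the listed mean signals of 1764 probesets (largest deviation 0.00308%). Another 24 columns of values per sample in 2 other tables carry names that match no sample label and were not used. Gene names came from the platform's annotation after an update by Entrez ID (32794 probesets with 1 symbol, 55 with several, which name none), and for 278 others from the study. All 20 member probesets were named by the annotation.

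The detection filter of the study was replaced by a signal of 100 or more on 3 or more eluates, since the detection values sit in the unused columns. Fraction and replicate number were fitted by lmFit and eBayes of limma 3.58.1 (R 4.3.3), two-sided, with Benjamini-Hochberg adjustment over 13902 probesets, after a test on simulated data. The replicate number is the only pairing in the labels, and the study's pairs were recovered by setting the p-values of all possible pairings against those of the study. Ratios within arrays were tested by exact permutation over 70 arrangements, called at an adjusted p of 0.05. Their 95% intervals come from the pooled SD, and those within the pairs of the study from the SD of the 4 paired differences. The brightest tested probeset stands for a gene. Tables were made in Python 3.11.15 (pandas 2.3.3, numpy 2.4.6, scipy 1.17.1) and figures in matplotlib 3.10.9. Alternatives changed the block, normalization, filter, floor, variance moderation, cutoff or replicates.

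The members, the lists of partners and markers, the tests and the alternatives were chosen with earlier results of these data known. Named are all member probesets, of the listed partners the 6 with the highest mean signal, and the 5 genes most like Actn4, Actn1 and the brightest PDZ-LIM gene. Csrp2 was named after its values were seen, as a call with the pairs of the study. Some genes that this rule or these calls would name are not reported here.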

Additional observations from a re-analysis of the deposited data

Results flagged for a closer look

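Of 32 groups of 4 arrays examined, a fraction at a member probeset each, 1 held an array far from the other 3 by Dixon's criterion. This was eluate 4 at Pdlim2 probeset 3830040, with a signal of 231 against 176 to 184 in the other eluates, and its gap to the nearest was 0.842 of the range. Chance gives such a gap in about 1 of 20 groups.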

How the results depend on the processing

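The replicate numbers do not pair the arrays. The correlation of deviations from the fraction means was 0.474, -0.663, 0.737 and -0.765 for eluate and input of numbers 1 to 4, against 0.755, 0.803, 0.782 and 0.819 for the pairs of the study. With the replicate block 156 probesets were past the cutoff, against 832 with no replicate block, 4124 with the set of arrays and 5539 with the pairs of the study as the block (4766, 3442, 3995 and 6078 without the pair of eluate 1, 2, 3 or 4, 2069 with no moderation of the variance, 7240 after quantile normalization and 4768 with no filter, all chosen after the data were seen). The count was 813 after quantile normalization, 390 with no filter, 84 at a cutoff of 0.05, 53 to 1474 without 1 replicate number and 0 with no moderation of the variance, where 1303 had an unadjusted p under 0.05 (1403 with limma's moderation). The count also at least 2-fold higher was 91, and 53 to 127 without 1 replicate number and 0 with no moderation. The unmoderated fit called 0 members (actinins at adjusted p-values of 0.389 to 0.522, all 5 under 0.05 unadjusted), and 8 with the pairs of the study.

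Of the 16 tested member probesets, 5 were called, and 8 with the set of arrays or the pairs of the study as the block, 8 or 9 without 1 of those pairs, 10 with those pairs after quantile normalization, and 4 to 6 without 1 replicate number. Of all 13902 tested probesets 156 were past the cutoff, 4124 with the set of arrays, 5539 with those pairs and 7240 with those pairs after quantile normalization. With those pairs and no filter 9 member probesets were called, a count that includes a PDZ-LIM probeset that did not pass the filter. PDZ-LIM calls numbered 0, but 3 with either of those blocks (3 or 4 without 1 pair), 5 with the pairs after quantile normalization (the 4 tested Pdlim5 probesets and Pdlim2 3830040), 4 with the pairs and no filter (3 of them among the tested probesets), 1 after quantile normalization, 1 with no filter and 0 to 1 without 1 replicate number. The 1 without replicate 2 was Pdlim5 probeset 5890148, at 1.04. Actinin calls numbered 4 to 5 without 1 replicate number and 4 with signals below 100 set to 100, where the dim Actn1 probeset was lost (adjusted p = 0.155). Partner calls numbered 0, but 4 with the set of arrays or the pairs (2 to 6 without 1 pair), 6 and 3 with the pairs after quantile normalization and with no filter, 1 with no filter and 0 to 2 without 1 replicate number. Beside the counts over all tested probesets, the PDZ-LIM and partner calls with the set of arrays or the pairs say little about these genes.

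Small fold changes turned sign when 1 replicate number was left out, none of them called: Pdlim5 101850717 (-0.06 to 0.33), Pdlim7 105080538 (-0.26 to 0.29) and 4780136 (-0.39 to 0.11), Pdlim1 450100 (-0.01 to 0.22) and 102940270 (-0.27 to 0.06), Pdlim2 2810551 (-0.13 to 0.03) and 2450603 (-0.09 to 0.11, and -0.06 and -0.01 without 1 pair). Replicate numbers 2 and 4 each join an eluate and an input of opposite sets of arrays. Leaving out either number therefore leaves the sets unequally spread over the fractions. Without 1 pair of the study, Pdlim7 105080538 stayed between 0.06 and 0.20. The causes were not tested. The 8 differences between an actinin and a PDZ-LIM gene kept their direction and call after quantile normalization, with a floor of 100 and with means over probesets. Within the pairs of the study they kept their direction but not their call, since the exact sign-flip test of 4 pairs cannot go below p = 0.125. Without 1 replicate number they ranged from 0.87 to 2.47, where the exact permutation test of 3 arrays against 3 cannot go below p = 0.1. The difference between Actn4 and Actn1 passed with means over probesets (0.86). Leaving out an Actn1 probeset named only by the study gave no separate value, because the annotation names both.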
